A study of Homo sapiens with 4 samples.

Results

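The genes described here are the 9 members of the MYC and MAX transcription factor network that carry the gene symbols *MYC*, *MAX*, *MXD1*, *MXD3*, *MXD4*, *MXI1*, *MNT*, *MLX* and *MLXIP*, out of 23287 gene symbols in the RNA-seq data. They were chosen by symbol, and all 9 were found and reached the expression minimum used below. T47D is an established human breast cancer line with the progesterone receptor (PR), and R5020 is a synthetic progestin that activates the PR. One RNA-seq library came from cells given 10 nM R5020 for 3 h and 1 from cells given the vehicle, ethanol (EtOH), and both were grown beforehand in medium with charcoal-stripped serum, which is low in steroid hormones. A PR ChIP-seq library from T47D cells given 10 nM R5020 for 1 h gave 11181 PR binding sites, called by the authors against input DNA. The ChIP cells were also grown in charcoal-stripped serum, for longer than the RNA cells. Each condition was 1 library of 1 cell line, so no difference below has a replicate check, no p-value is given, and every comparison is between these libraries.

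MYC is a transcription factor that drives cell growth, ribosome production and cell division, and its mRNA and protein are short-lived. MYC binds DNA only as a pair with MAX, at the E-box sequence CACGTG. The MXD proteins, MXI1 and MNT compete with MYC for MAX and for the same DNA sequence and recruit repressor complexes with histone deacetylases. MLX, a relative of MAX, pairs with some of these repressors and with the glucose-responsive factors MLXIP (MondoA) and MLXIPL (ChREBP). In the mammary gland and in breast cancer cells *MYC* is a classical early target of steroid hormones.

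Among the PR binding sites within 100 kb of the network genes, the site upstream of *MAX* at chr14:65585185-65585384 was the only one to hold a pair of hormone receptor half-sites, and the site upstream of *MXD4* at chr4:2269787-2269986 had the highest score. These are shown first, as the central 200 bases of each site on the plus strand of GRCh37 (hg19). Capitals mark paired half-sites, written GNACA and TGTNC with 3 bases between them, single half-sites AGAACA or TGTTCT, and the E-box CACGTG, each searched on both strands. A paired match can contain a single half-site, and here it did not. The PR binds such half-sites, and MYC and its relatives bind the E-box.
MAX upstream site: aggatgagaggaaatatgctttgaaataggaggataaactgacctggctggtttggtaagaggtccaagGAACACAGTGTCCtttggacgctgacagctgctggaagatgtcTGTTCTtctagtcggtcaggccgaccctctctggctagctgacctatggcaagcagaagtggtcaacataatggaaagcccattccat
MXD4 upstream site: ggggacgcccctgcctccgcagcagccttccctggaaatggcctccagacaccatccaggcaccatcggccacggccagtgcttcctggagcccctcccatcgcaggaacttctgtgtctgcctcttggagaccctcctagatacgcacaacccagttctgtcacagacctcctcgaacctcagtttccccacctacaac
Further motif matches are shown as 30 bases around each match, to place the letters counted in the sites below. They lie at chr17:2303922-2303951 (*MNT* start), chr17:40821739-40821768 and chr17:40821818-40821847 (the same site downstream of *MLX*), chr17:40626481-40626510 (upstream of *MLX*) and chr4:2249751-2249780 (the 3′ part of *MXD4*).
MNT start, E-box: ccggccgctcacCACGTGctctctgttgtt
MLX downstream, E-box: tatgattcacagCACGTGtgtggagggggc
MLX downstream, half-site: gagatgggtagcTGTTCTggatgtggggaa
MLX upstream, half-site: ctctgccttgccTGTTCTtgcactagctca
MXD4 inside, half-site: agccccgggctcTGTTCTgcttctgtctgc

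RNA levels are given as FPKM, the fragment abundance that Cufflinks estimated, scaled for transcript length and library size, and summed over the transcripts of a gene. The deposited coverage, turned into reads of 50 nt by transcript length, corresponded to 35151493 reads in EtOH and 36203604 reads in R5020. The paper reports larger totals of uniquely aligned reads, which were higher in EtOH than in R5020. The luminal markers *GATA3* (253 in EtOH and 126 in R5020), *ESR1* (17.2 and 10.9) and *PGR* (23.7 and 15.3), the last of which encodes the PR, were present in both libraries, and the leukocyte gene *PTPRC* was at 0.0135 and 0.00574. *FKBP5*, a long-known progestin target, was at 15.9 in EtOH and 86.6 in R5020. *KRT8*, an abundant keratin of luminal cells, was listed at 0 in EtOH and at 285 in R5020, so a value of exactly 0 in these data can be a failed estimate and is written as "listed at 0". A change is the difference in log2(FPKM + 1) between R5020 and EtOH, a scale that understates the change of low genes. Genes that reached an FPKM of 1 in either library were retained, and a gene was called higher or lower when this change reached 1.5-fold.

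*MYC* was the only one of the 9 network genes that changed by 1.5-fold. Its FPKM was 1.53 with EtOH and rose to 8.31 with R5020, a log2 change of 1.88 with a counting error of 0.08 (SE), or 5.44 times as much without the pseudocount. The other 8 genes lay between a log2 change of -0.25 (*MLXIP*) and 0.27 (*MXI1*), and none of the 9 was lower by 1.5-fold. Over all 11018 retained genes, 7.67% were higher and 4.14% were lower, beside 1 and 0 of 9 here. The median change was -0.07 over the 9 genes, with 4 above and 5 below 0, and 0.01 over the retained genes.

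**Figure D1:**
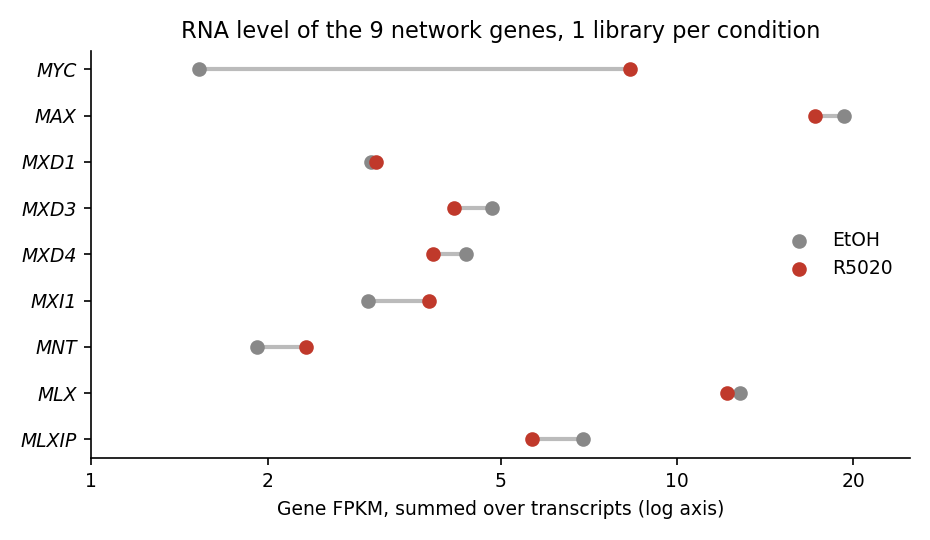
Gene FPKM, summed over transcripts, of the 9 network genes on a log axis, with 1 grey point for the EtOH library and 1 red point for the R5020 library. *MYC* moved from 1.53 to 8.31 while the other 8 genes had their points close together, and *MAX* had the highest deposited FPKM in both libraries at 19.3 and 17.2.

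*MYC* lies at chr8:128748315-128753680 on the plus strand and had 1 transcript in the data, NM_002467. The coverage of this transcript corresponded to 341 reads in EtOH and 1787 in R5020. Among all genes ranked by FPKM, *MYC* was at place 9741 in EtOH and 3836 in R5020. Of the retained genes, 102 had a larger rise. The deposited FPKM of *MYC* lay above its own deposited interval in both libraries, which ran from 0.817 to 1.29 in EtOH and from 4.99 to 6.16 in R5020. These intervals did not overlap, and with their midpoints in place of the FPKM the log2 change was 1.68.

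The genes whose pair of values was nearest to that of *MYC*, by Euclidean distance in log2(FPKM + 1) over the 2 RNA libraries, were *FAM110C*, *SNORD15A* and *DGKH*. *FAM110C* was at an FPKM of 1.69 with EtOH and 7.81 with R5020, at a distance of 0.12. *SNORD15A*, a small nucleolar RNA, went from 1.53 to 7.25 at a distance of 0.17. *DGKH*, a diacylglycerol kinase, went from 1.37 to 7.25 at a distance of 0.20. With 2 libraries this likeness says only that the levels were alike in each.

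**Figure D2:**
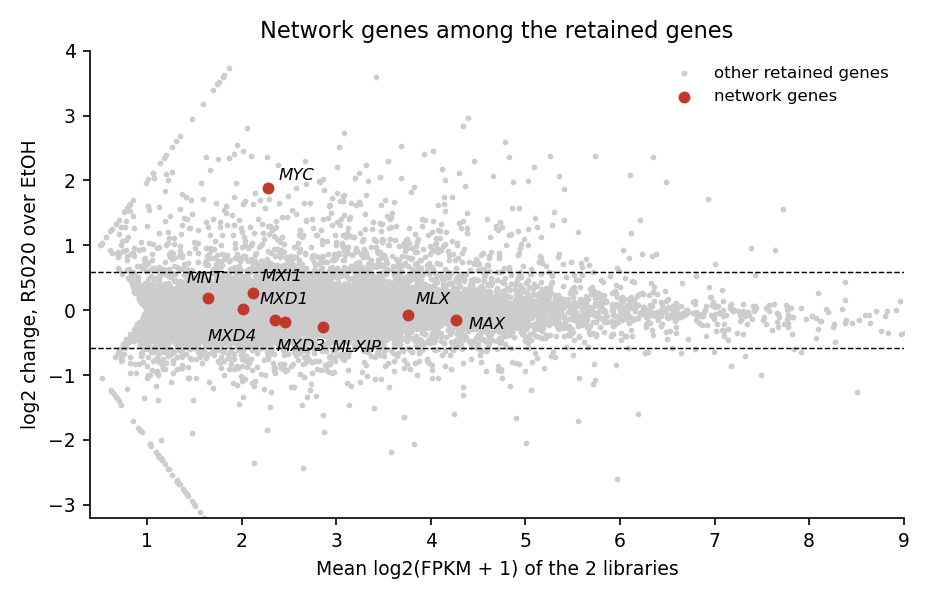
Change from EtOH to R5020 (log2 of FPKM + 1) against the mean log2(FPKM + 1) of both libraries for the retained genes, in grey, and the 9 network genes, in red, with dashed lines at 1.5-fold. *MYC* stands above the upper line at 1.88 and the other 8 network genes lie between the lines, and 76 of the other retained genes fall outside the axes drawn.

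*MAX*, the shared partner of the network, had the highest deposited FPKM of the 9 genes. Its FPKM was 19.3 in EtOH and 17.2 in R5020, a log2 change of -0.16 with a counting error of 0.05. *MAX* lies at chr14:65472892-65569227 on the minus strand, and 6 of its transcripts were in the data. NM_145112 was at 13.5 in EtOH and 11.2 in R5020, and NM_002382 was at 5.79 and 5.99. NM_145112 thus made up 70.0% of the *MAX* FPKM in EtOH and 65.2% in R5020, and the other 4 transcripts were listed at 0 in both. Both of these transcripts start at the same place and had an FPKM above their own deposited interval, as *MYC* had. The *MLX* transcripts above 0 lay inside theirs, so the rank of *MAX* above *MLX* compares unlike values. In R5020 the intervals were 6.87 to 8.58 (NM_145112) and 3.58 to 4.88 (NM_002382) for *MAX*. Those of *MLX* were 7.75 to 9.35 (NM_198204) and 3.09 to 4.20 (NM_198205). *MYC* RNA was at 0.0790 of the *MAX* level in EtOH and at 0.482 of it in R5020, so *MAX* RNA stayed above *MYC* RNA in both libraries.

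The genes of the repressors that compete for MAX were *MXD1*, *MXD3*, *MXD4*, *MXI1* and *MNT*, and none of them passed 1.5-fold. Their summed FPKM was 17.1 in EtOH and 17.2 in R5020, a log2 ratio of 0.01. Beside this sum, *MYC* was at 0.0893 in EtOH and at 0.484 in R5020. The balance of *MYC* to repressor RNA therefore moved through *MYC*, at the level of these sums. The FPKM of *MYC* and *MNT* lay above their own deposited intervals, and those of the other repressor genes lay inside. The size of these ratios thus rests on unlike values.

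*MXI1* (chr10:111967363-112047123, plus strand) had the largest value above 0 among the repressor genes, at an FPKM of 2.97 with EtOH and 3.77 with R5020 and a log2 change of 0.27 with a counting error of 0.07. Of the retained genes, 81.3% had a smaller change than *MXI1*. Its transcripts start at different places. NM_005962, whose start is at position 111985762, was at 2.25 in EtOH and 3.35 in R5020, a log2 change of 0.42 that did not reach the threshold of 0.585 (1.49 times as much without the pseudocount). NM_130439, which starts upstream at 111967363, was at 0.724 and 0.422, a ratio of 0.583 without the pseudocount, and lay below the FPKM minimum of 1 in both libraries. The share of NM_005962 in the *MXI1* FPKM was 75.6% in EtOH and 88.8% in R5020, and NM_001008541, with a start between these, was listed at 0 in both.

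*MXD1* (chr2:70142173-70170076, plus strand) was at an FPKM of 2.999 with EtOH and 3.07 with R5020, a log2 change of 0.02 with a counting error of 0.05. This near-equal sum held transcripts that moved apart. NM_002357 was at 1.85 in EtOH and 2.47 in R5020, with a log2 change of 0.29, and its deposited intervals of 1.61 to 2.08 and 2.21 to 2.74 did not overlap. NM_001202514 was at 1.15 and 0.596, with a log2 change of -0.43, and its intervals of 0.942 to 1.36 and 0.441 to 0.751 did not overlap either. The share of NM_002357 was 61.6% in EtOH and 80.6% in R5020. Both transcripts start at the same place and differ in length by little, 5616 against 5586 nt, so the split between them rests on few bases that tell them apart.

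*MNT* (chr17:2287354-2304258, minus strand), which is present in most cell types, was at an FPKM of 1.92 with EtOH and 2.33 with R5020, a log2 change of 0.19 with a counting error of 0.06. Its single transcript, NM_020310, had an FPKM above its own interval in both libraries. *MXD3* (chr5:176732501-176739292, minus strand), a member linked to dividing cells, was at 4.83 and 4.17, a log2 change of -0.18 with an error of 0.07. *MXD4* (chr4:2249160-2263739, minus strand) was at 4.36 and 3.83, a log2 change of -0.15 with an error of 0.06. *MXI1* and *MNT* thus lay above 0, *MXD3* and *MXD4* below 0 and *MXD1* near it, all within the 10th to 90th percentile of the retained genes, which ran from -0.37 to 0.48. *MXD3* overlaps *PRELID1* (3.84 in EtOH and 4.47 in R5020), and whether reads were assigned by strand is not given in the sources used here, so the reads of the overlap could belong to either gene.

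In the MLX branch, *MLX* (chr17:40719078-40725221, plus strand) was at an FPKM of 12.8 with EtOH and 12.2 with R5020, a log2 change of -0.07 with a counting error of 0.05. NM_198204 made up 73.1% of it in EtOH and 70.1% in R5020, NM_198205 made up the rest, and NM_170607 was listed at 0 in both. *MLXIP* (chr12:122516652-122628967, plus strand), which encodes the glucose-responsive MondoA, was at 6.92 and 5.66, a log2 change of -0.25 with an error of 0.05. This was the lowest change of the 9 genes, yet 17.2% of the retained genes had a lower one. The summed FPKM of both genes was 19.7 in EtOH and 17.8 in R5020. *MLX* overlaps *PSMC3IP* (3.76 and 5.56), with the same limit on strand.

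The summed FPKM of all 9 genes was 57.7 in EtOH and 60.5 in R5020, and *MYC* made up 2.65% of it in EtOH and 13.7% in R5020. Without *MYC* the sum was 56.1 and 52.2. The order of deposited FPKM in EtOH ran from *MAX* through *MLX*, *MLXIP*, *MXD3*, *MXD4*, *MXD1*, *MXI1* and *MNT* down to *MYC*, which was lowest. In R5020 *MYC* came next after *MAX* and *MLX*. The neighbours *MXD1* and *MXI1* in EtOH, at 2.999 and 2.97, and *MXD4* and *MXI1* in R5020, at 3.83 and 3.77, had nearly the same level. For *MYC*, *MAX*, *MNT* and *MLXIP* the FPKM lay above its own interval. Their shares and places beside the other genes therefore compare unlike values.

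Of the 21 transcripts of these genes, 8 were listed at 0 in both libraries and 12 reached an FPKM of 1 in a library. One of them, NM_002467 of *MYC*, was higher by 1.5-fold and none was lower, beside 11.3% higher and 8.34% lower of the 13625 retained transcripts. For 5 transcripts, those of *MYC*, *MNT* and *MLXIP* and both of *MAX*, the deposited FPKM lay outside the deposited interval. For the 5 genes in which this did not occur, the interval held the FPKM of every transcript in both libraries.

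**Figure D3:**
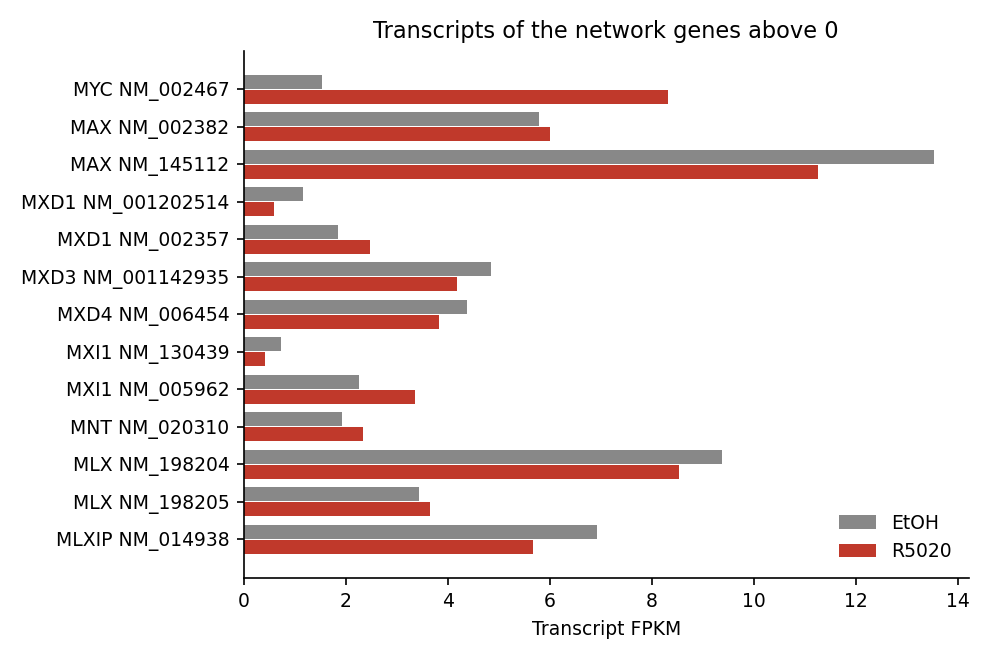
FPKM of the 13 transcripts of the network genes that were above 0, with a grey bar for the EtOH library and a red bar for the R5020 library, from 1 library each and hence with no error bars. NM_002467 of *MYC* went from 1.53 to 8.31, and within *MXD1* NM_001202514 was at 1.15 and 0.596 while NM_002357 was at 1.85 and 2.47.

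Of the 9 genes, 6 had a PR binding site inside them or within 100 kb, namely *MYC*, *MAX*, *MXD3*, *MXD4*, *MNT* and *MLX*. Such a site was near 64.3% of all retained genes, so 6 of 9 was near the background. There were 17 of these sites. Their scores, which the peak caller MACS sets from its p-value and which are higher for smaller p-values, ran from 56.68 to 112.41 with a median of 76.59, and 8 of the 17 lay below the median of all sites, 74.5. The sites near these genes thus had scores in the ordinary range of the data, in which the highest score was 1965.17.

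PR binding at a transcript start was seen at 3 of the 9 genes. A site lay over the start of *MYC* and over the start of *MAX*, and a site ended 3 bp from the start of *MNT*, while 10.3% of the 9643 retained genes with a known strand had a site within 1 kb of a start. Among the genes higher in R5020 by 1.5-fold this share was 122 of 732, or 16.7%. *MYC* was higher in R5020, and *MAX* and *MNT* did not pass 1.5-fold, so the genes with a site at the start did not share a change in RNA.

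The site over the *MYC* start covered chr8:128748278-128748752 with a score of 80.96, above 62.2% of all sites, and its midpoint lay 200 bp into the gene. A GENCODE transcript of *MYC*, not necessarily NM_002467, has coding sequence at this midpoint. The other *MYC* site, at chr8:128853663-128853968 with a score of 57.65, lay 99983 bp downstream of the gene, just inside the limit. Just outside lay a site 112667 bp from *MYC* with a score of 68.8 and, for *MXD1*, a site at 101715 bp with a score of 90.51. The 300 bases around the midpoint of neither *MYC* site held a paired half-site, a half-site or an E-box.

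The *MAX* locus had 3 sites. One covered the start at chr14:65569135-65569541 with a score of 80.8, one lay inside the gene at chr14:65536722-65537200 with a score of 66.13, and one lay 15840 bp upstream with a score of 89.81. The one inside lay within the extent of NM_197957 only, a transcript listed at 0 in both libraries. NM_145112 and NM_002382, the *MAX* transcripts above 0, end at 65541845, short of this site. The upstream site holds the half-sites shown above. Midpoints of the first pair fell in exons annotated as *MAX* UTR, and the upstream site in no protein-coding gene.

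*MXD4* had 5 sites, the most of the 9 genes. The strongest, at chr4:2269653-2270120 with a score of 112.41, was above 89.7% of all sites and lay 5914 bp upstream, next to one at 4852 bp with a score of 79.27. One site with a score of 83.01 lay inside *MXD4*, and those at 41579 and 42174 bp, with scores of 76.59 and 59.16, lay in *ZFYVE28*. *MXD4* RNA, at 4.36 and 3.83, did not pass 1.5-fold.

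*MNT* had a site at its start with a score of 56.68, one at 407 bp from it in an intron with a score of 65.05, and one 8921 bp from the gene in *SGSM2* with a score of 63.64, all below the median of all sites. *MXD3* had a site in an intron with a score of 71.51 and one in *NSD1*, 84463 bp away, with 88.83. The sites assigned to *MLX* lay far from it, at 92513 bp in *ATP6V0A1* and at 96145 bp in *PLEKHH3*, with scores of 65.47 and 90.78. For *MXD1*, *MXI1* and *MLXIP* the nearest sites were 101715, 132838 and 189875 bp away.

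**Figure D4:**
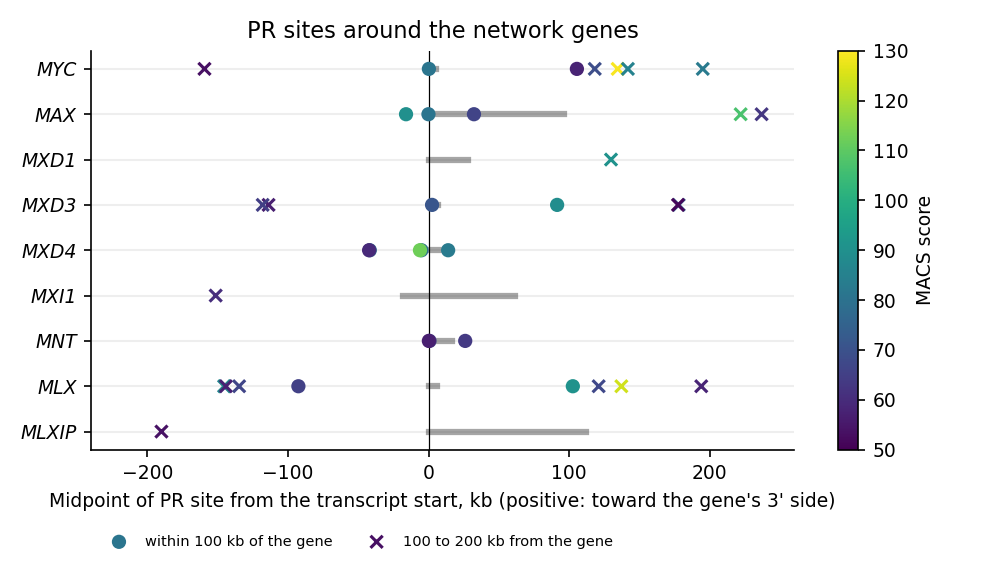
Midpoints of PR binding sites in kb from the start of the highest transcript of each gene, with the extent of the gene as a grey bar, circles for sites within 100 kb of the gene, crosses for those up to 200 kb and colour for the MACS score. *MYC*, *MAX* and *MNT* have a site at the start, *MXD4* has the circle with the highest score (112.41), and *MXD1*, *MXI1* and *MLXIP* have crosses only.

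In the 300 bases around the midpoint, paired half-sites were found in 1 of the 17 sites, beside 1.88% of 11178 sites in the whole data. A half-site was found in 4 of 17, beside 17.7%, and an E-box in 3 of 17, beside 6.05%. The sites at the starts of *MYC*, *MAX* and *MNT* were rich in G and C, at 65.3%, 68.7% and 66.7%, where the median of all sites was 57.3%. They had 8.33, 10 and 9.33 CpG per 100 bases, where the median was 2. In the RefSeq promoters of GRCh38.p14, windows of 300 bases over a start, 11 promoters matched 8 of the 9 genes, all but *MYC*. An E-box was found in those of *MXD4*, *MNT* and *MLX*, and in 7.26% of all 35116 promoters. A half-site was found in 1 of the 11, a promoter of *MXI1*, and in 14.8% of all promoters. A match describes these letters only and says nothing of binding.

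Genes that work with the network were described from lists of related genes, by the same threshold, which 7.67% of all retained genes passed upward and 4.14% downward. All the lists, here and below, were chosen with earlier results of these data known. A share set beside this background is therefore a description only. The share of higher genes in the lists of cofactors and turnover genes, 1 of 14 and 1 of 13, was near this background. The remaining network genes did not pass it, as *MGA* was at 3.18 in EtOH and 3.31 in R5020, *MYCL1* at 1.40 and 1.16 and *MLXIPL* at 2.09 and 2.01, while *MYCN* was listed at 0 and at 0.0613. Of 14 cofactors of MYC, 1 was higher and none lower, with a median change of 0.12. That gene was *MYCBP2*, which encodes a large ubiquitin ligase first found through its binding to MYC, at 3.34 and 6.26 (log2 change 0.74). Of 7 corepressor genes of MXD and MNT, 1 was higher and none lower, with a median of -0.04. That gene was *SAP30*, a subunit of the SIN3 complex, at 2.53 and 4.98 (0.76). Of 13 genes for MYC turnover, 1 was higher and none lower, with a median of 0.08, and it was *USP28*, which encodes a deubiquitinase that stabilises MYC, at 4.38 and 8.35 (0.80).

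Known target genes of the network were mixed. Of 41 genes that MYC is known to activate, 39 were retained, 4 were higher and none lower, beside 7.67% higher and 4.14% lower of all retained genes. Their median change was 0.18, with 28 above and 11 below 0, beside 0.01 for the retained genes. *AMD1* and *SRM*, both of polyamine synthesis, were at 9.83 and 26.3 (1.33) and at 6.85 and 11.9 (0.72), and the nucleolar helicase *DDX21* was at 21.5 and 34.7 (0.67). *ODC1*, the classical MYC target of polyamine synthesis, was at 15.6 in EtOH and 14.3 in R5020.

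Of 9 genes that MYC is known to repress, 7 were retained, and 3 of these were higher and 1 lower, with a median of 0.05, beside 7.67% higher and 4.14% lower of all retained genes. This list, too, was chosen with earlier results known, so the counts are no independent comparison. The genes that were higher were *THBS1*, an inhibitor of blood vessel growth, at 11.3 and 50.7 (2.07), *NDRG1*, a stress and differentiation gene, at 5.34 and 25.2 (2.05), and *GADD45A*, a growth arrest gene, at 1.28 and 6.09 (1.64). *CDKN2B*, a cell cycle inhibitor, was lower, at 7.22 and 1.93 (-1.49), and *CDKN1A*, another one, was at 10.0 and 9.70. A PR binding site lay in or over *THBS1*, *NDRG1* and *CDKN1A*, while the nearest to *GADD45A* and *CDKN2B* were 327536 and 306346 bp away. For the other retained genes of the list, *CDKN1B* and *NDRG2*, the nearest were 168787 and 67316 bp away. A site lay in or within 10 kb of 33% of all retained genes. Whether MYC or the PR acted on these genes was not tested.

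Of 8 targets of MondoA and ChREBP, 7 were retained, 2 were higher and none lower, with a median of 0.12, again beside 7.67% and 4.14%. *PFKFB3*, a regulator of glycolysis, was at 6.57 and 53.1 (2.84), and *KLF10*, a transcription factor gene, at 1.16 and 2.34 (0.63). *TXNIP* and *ARRDC4*, the targets most often used to read MondoA activity, were at 9.19 and 9.97 (0.11) and at 1.40 and 1.57 (0.10). A PR binding site lay in or over *PFKFB3*, *TXNIP* and *FASN* (log2 change 0.12), and the nearest to *KLF10* and *ARRDC4* were 156 and 15634 bp away. Those nearest to *ACACA* and *HK2* were 31806 and 329312 bp away. A site lay in or within 10 kb of 33% of all retained genes. All 7 retained genes of this list lay above 0, but 5 of them did not pass 1.5-fold, and the median over all retained genes was 0.01. These lists were small, held genes with many other regulators, and were described by counts only.

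**Figure D5:**
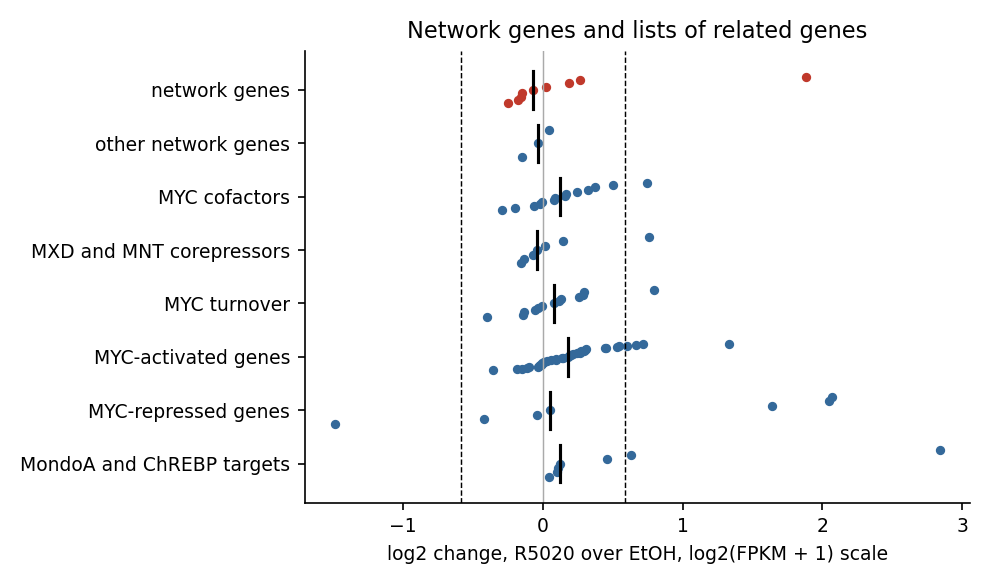
Change from EtOH to R5020 (log2 of FPKM + 1) of each retained gene in the network (red) and in 7 lists of related genes (blue), with a black bar at the median of each list and dashed lines at 1.5-fold. The medians lie between -0.07 and 0.18, and the MYC-repressed genes have 4 of 7 points beyond the lines. The lists were chosen with earlier results of these data known.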

How the data were processed

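The paired 50 nt RNA-seq reads were aligned by the authors to hg19 with TopHat, and Cufflinks gave the deposited FPKM, its interval and a coverage for each of 41138 RefSeq transcripts. The deposited coverage served only to express depth and the counting error. For ChIP-seq the authors aligned reads with Bowtie 1.1.2 and called sites with MACS against input DNA, which was not analysed here, and the deposited score, 10 times the negative log10 of the p-value, is 50 or more. Whether reads were counted by strand is not given in the sources used here.

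FPKM was summed per gene symbol. The pseudocount was 1, the minimum FPKM 1 and the threshold 1.5-fold. Site distances ran from the nearest site edge to the extent of the gene's transcripts. Site midpoints were annotated with the protein-coding genes of GENCODE on GRCh37, and promoters were those of RefSeq. The sequence of 1 motif match is not reported here. Counting errors (SE) take each pair of reads from the coverage as 1 fragment, treat fragments as independent and cover counting only. Python 3.11.15, pandas 2.3.3, numpy 2.4.6, pysam 0.24.0 and matplotlib 3.10.9 were used.

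The members and lists were chosen with earlier results of these data known. Named genes were the 9 members with their expressed transcripts, the genes within 100 kb of members with a site that changed by 1.5-fold, up to 3 rises and 3 falls of each list, and the 3 genes nearest in pattern to each changed member. The cell type markers, other unchanged genes of the lists, *PVT1*, *PRELID1*, *PSMC3IP*, *TSR1*, *FNTB* and *CHURC1-FNTB* were added after their values were seen. Alternatives were other pseudocounts, filters, thresholds, scalings, gene summaries, distances and site scores.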

Additional observations from a re-analysis of the deposited data

How the results depend on the processing

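With 1 library per condition no replicate could be left out. No paired analysis was possible because each condition had 1 library. No direction of the 9 genes was reversed under the 4 alternatives for the values, which were a pseudocount of 0.1, FPKM rescaled so that the median gene was equal in both libraries, the highest transcript alone and, chosen after seeing the data, the midpoint of the FPKM interval. The log2 change of *MYC* ran from 1.68 to 2.37 over these. The number of the 9 genes that were higher (1) or lower (0) was the same under these, without a filter on FPKM, with the filter in both libraries and at a 2-fold threshold. The number of lower transcripts was 1 in place of 0 with a pseudocount of 0.1, and also 1 with the ratio without a pseudocount, which was chosen after seeing the data. In both cases it was NM_001202514 of *MXD1*, with a ratio of 0.517. In the lists of related genes 13 genes passed 1.5-fold and 6 passed 2-fold. The number of genes with a PR binding site within 100 kb was 6, and it was 1 (*MXD4*) when the score had to be at least 100, as for 25.7% of the retained genes. It was 5 at 10 kb and at 50 kb and 9 at 200 kb, beside 33%, 52.7% and 75.6% of the retained genes. The number with a site within 1 kb of a start was 3, over the start 2 and within 5 kb 5, beside 10.3%, 3.77% and 15.9% of the retained genes with a known strand, and these counts and distances were all chosen after seeing the data. Read numbers behind the FPKM, 341 for *MYC* in EtOH, limit counting precision, and the spread between cultures is unknown.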

Other observations

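Around the 6 network genes with a PR binding site within 100 kb, 4 of 23 retained neighbouring genes changed by 1.5-fold, beside 11.8% of all retained genes, and 2 of these 4 (*SRR* and *MIR1204*) were listed at 0 in 1 library. Near *MLX*, *HSD17B1*, which encodes an enzyme that makes estradiol, was at an FPKM of 4.63 with EtOH and 2.58 with R5020, a log2 change of -0.65. *PLEKHH3*, which holds the site downstream of *MLX*, was at 6.92 and 3.63, a log2 change of -0.77. Near *MNT*, *SRR*, the gene of serine racemase, was at 1.74 in EtOH and listed at 0 in R5020. *TSR1*, a ribosome assembly gene next to *SRR*, was at 6.76 and 10.5, a log2 change of 0.57 and just under the threshold. Whether *SRR* and *TSR1* overlap, so that reads could belong to either gene, was not examined. The values of *PLEKHH3* and *HSD17B1* lay above their own deposited intervals in both libraries, which were 1.70 to 2.29 in EtOH and 0.848 to 1.28 in R5020 for *PLEKHH3* and 2.44 to 3.26 and 1.30 to 1.87 for *HSD17B1*. The EtOH value of *SRR* lay below its own interval of 1.82 to 2.51. No retained gene within 100 kb of *MAX*, *MXD3* or *MXD4* passed 1.5-fold, but only 2 of 7, 4 of 8 and 1 of 4 genes there were retained. *FNTB* and *CHURC1-FNTB*, which overlap *MAX*, were listed at 0 in both libraries.

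Downstream of *MYC*, the long noncoding RNA gene *PVT1* was at 3.80 in EtOH and 4.98 in R5020, a log2 change of 0.32. The microRNA gene *MIR1204*, which lies within the same stretch, was listed at 0 in EtOH and at 452 in R5020, but its transcript is 67 nt long and its deposited interval in R5020 ran from 0 to 2.20. Further PR binding sites lay downstream of *MYC* between 100 and 200 kb from the gene, and whether they lie inside *PVT1* was not looked up. The one with the highest score, 129.14, above 93.9% of all sites, was 128775 bp away, and others at 136213 and 189467 bp had scores of 85.09 and 82.75. All 3 had a higher score than the site over the *MYC* start, 80.96. On the other side, a site 159263 bp upstream had a score of 53.32.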
